A study of Mus musculus with 8 samples.

Results

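The TNF superfamily is a family of mostly trimeric ligands, made at the cell surface or released from it, that bind receptors of the TNF receptor superfamily, and the TRAF adaptors carry the signal of many of these receptors to NF-κB and JNK. Its genes were taken as the protein-coding genes whose symbol begins with Tnfsf or Tnfrsf, together with Tnf, Lta, Ltb, Ltbr, Fas, Fasl, Cd40, Cd40lg, Cd27, Cd70, Eda, Edar, Eda2r and Traf1 to Traf7. By this rule of names, 52 of the 53697 genes in the table were members, namely 19 ligands, 6 receptors with a death domain, 3 decoy or secreted receptors, 17 other receptors and 7 TRAFs. Of these, 42 had enough counts to be tested and 10 did not.

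RNA was sequenced from mammary tumor cells of 4 mice carrying MMTV-PyMT, a transgene that drives the polyoma middle T antigen in mammary epithelium and gives luminal tumors. All 4 were on a C57BL/6 background, and their ages are not given in the sources used here. PyMT-Dll1GFP mice (2 mice) carry GFP knocked into the gene of Dll1, a Notch ligand, and PyMT-Dll1mCh mice (2 mice) carry an mCherry reporter built on a BAC, so the lines differ in how the reporter reads the gene. Digested tumors were depleted of cells with CD45, CD31 or Ter119 (blood, endothelial and red cells) and sorted by the reporter into both fractions. With 1 library of each fraction per mouse there were 8 in all. The comparison of Dll1+ with Dll1- cells was therefore made within mice, and that between reporter lines rests on 2 mice against 2, in which line, mouse and any sequencing batch cannot be told apart.

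In epithelial tissue the family bears on survival and inflammation in ways that depend on the receptor. TNF, through TNFR1 (Tnfrsf1a), can switch on NF-κB survival genes or a caspase death program, and TRAIL (Tnfsf10) and FasL are best known for killing. RANK (Tnfrsf11a) and its ligand RANKL (Tnfsf11) control growth of the mammary gland, and the ectodysplasin receptor EDAR shapes its branching.

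The promoters of 4 members whose RNA differed between Dll1+ and Dll1- cells are shown so that their start regions can be compared. They are RefSeq windows of build GRCm38.p6, from 250 bases before to 50 after the transcription start, 5′ to 3′ on the gene's strand. Capitals mark a TATA box (TATAAA), an AP-1 site (TGANTCA) or a site of CSL, the DNA-binding partner of Notch (TGGGAA), each searched on both strands, and lower case means no match. The windows lie at chr17:35201958-35202257 (Tnf, minus strand), chr2:34961723-34962022 (Traf1, minus strand), chr19:34290409-34290708 (Fas, plus strand) and chr14:61037938-61038237 (Tnfrsf19, minus strand, the downstream of 2 starts listed for it).
Tnf: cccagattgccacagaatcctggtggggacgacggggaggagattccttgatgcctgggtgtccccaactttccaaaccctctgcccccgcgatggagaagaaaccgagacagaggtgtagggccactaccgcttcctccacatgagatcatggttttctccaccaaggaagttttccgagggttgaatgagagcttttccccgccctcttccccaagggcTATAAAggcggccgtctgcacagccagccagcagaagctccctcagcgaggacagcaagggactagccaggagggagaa
Traf1: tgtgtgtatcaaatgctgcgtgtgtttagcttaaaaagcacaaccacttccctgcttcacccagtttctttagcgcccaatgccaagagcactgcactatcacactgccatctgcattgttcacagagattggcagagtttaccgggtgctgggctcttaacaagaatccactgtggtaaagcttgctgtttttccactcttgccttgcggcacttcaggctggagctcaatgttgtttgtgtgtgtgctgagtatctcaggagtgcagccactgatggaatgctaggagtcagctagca
Fas: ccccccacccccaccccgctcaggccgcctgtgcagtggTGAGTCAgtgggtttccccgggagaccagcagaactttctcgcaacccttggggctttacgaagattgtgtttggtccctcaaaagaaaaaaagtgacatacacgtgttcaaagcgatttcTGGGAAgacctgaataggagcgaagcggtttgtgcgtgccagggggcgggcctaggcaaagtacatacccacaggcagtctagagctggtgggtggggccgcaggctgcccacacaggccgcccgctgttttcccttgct
Tnfrsf19: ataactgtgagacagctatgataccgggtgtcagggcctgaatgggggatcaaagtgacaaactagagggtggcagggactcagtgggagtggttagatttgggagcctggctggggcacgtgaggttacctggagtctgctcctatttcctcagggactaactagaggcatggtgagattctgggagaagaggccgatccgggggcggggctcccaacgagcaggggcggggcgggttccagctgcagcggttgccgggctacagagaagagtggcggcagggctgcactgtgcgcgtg

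The Tnf window held a TATA box that begins 29 bases before the start. The Fas window held an AP-1 site at 211 and a CSL site at 90 bases before the start. The Traf1 and Tnfrsf19 windows held none of the motifs searched, and neither did the other Tnfrsf19 start. Among the 42 members with a window, 7 held a TATA box in at least 1 window, 6 an AP-1 site and 9 a CSL site, while the consensus NF-κB site stood in 4 (Ltb, Tnfrsf8, Tnfrsf9 and Traf3). Counted by window, 7 of the members' 46 windows held the TATA box, 7 the AP-1 site, 9 the CSL site and 4 the NF-κB consensus. Of all 32851 windows of the same length, 13.62% held the TATA box, 7.81% the AP-1 site, 25.56% the CSL site and 4.51% the NF-κB consensus. A match is a stretch of letters, not a measured binding site.

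Total counts per library ran from 27301396 to 123907626, so that 3 counts, taken as the floor of detection, corresponded to 0.0240 to 0.105 CPM (the share of a library's counts in TMM-scaled units, corrected for library composition, scaled to a total of 1e6). Such floors cover counting error only. Each of the 12 luminal epithelial markers was detected in all groups, with a sum of 6613 to 10426 CPM, as the label of tumor cells states. Basal epithelial markers moved with Dll1 status. Over the 4 mice, 4 of 10 (Krt5, Trp63, Cnn1 and Oxtr) were higher in Dll1+ cells, against 6.98% of all genes. The 10 markers had a median log2 fold change of 1.02. Their sum was 372 to 409 CPM in Dll1- and 434 to 661 CPM in Dll1+ cells of PyMT-Dll1GFP mice, and 550 and 847 against 1625 and 1681 CPM in PyMT-Dll1mCh mice, and the part of basal cells in the members' differences was not tested. The Dll1 gene itself, whose reporter set the sort, stood at 7.61 and 13.7 CPM in PyMT-Dll1GFP and 34.7 and 50.3 CPM in PyMT-Dll1mCh Dll1- cells, against 87.5 and 138, and 203 and 250.2 CPM, in Dll1+ cells. Markers of cells that the sort did not name or should have removed differed between lines. The sum of 10 fibroblast markers was 1248 to 1461 CPM in PyMT-Dll1GFP libraries, 3695 to 3835 in PyMT-Dll1mCh Dll1+ and 8412 and 24117 in PyMT-Dll1mCh Dll1- libraries. The pan-leukocyte markers (5 genes, none at 0 in a group) summed to 15.01 to 22.2 CPM in PyMT-Dll1GFP libraries, 42.5 to 47.7 in PyMT-Dll1mCh Dll1+ and 93.5 to 104 in PyMT-Dll1mCh Dll1- libraries. In bulk RNA, fewer cells of a type and less RNA per cell cannot be told apart.

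By level per transcript length, the family in these cells was led by a receptor. Tnfrsf12a, the TWEAK receptor Fn14, stood at 215 ± 69.0 CPM per kb (SD, n = 8 libraries). Traf4, an adaptor first described in breast carcinoma, followed at 75.7 ± 18.8, TNFR1 (Tnfrsf1a) at 62.3 ± 11.02, Traf7 at 48.2 ± 3.38 and Tnf at 47.0 ± 21.4 CPM per kb. The levels of Traf7 and Tnf lay within their spread of each other. Tnf was the highest of the ligands on this scale, with the APRIL gene Tnfsf13 next at 18.3 CPM per kb. The lymphotoxin receptor Ltbr stood at 42.5 CPM per kb, far above its ligand genes Ltb at 0.446 and Lta at 0.239 CPM per kb.

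**Figure D1:**
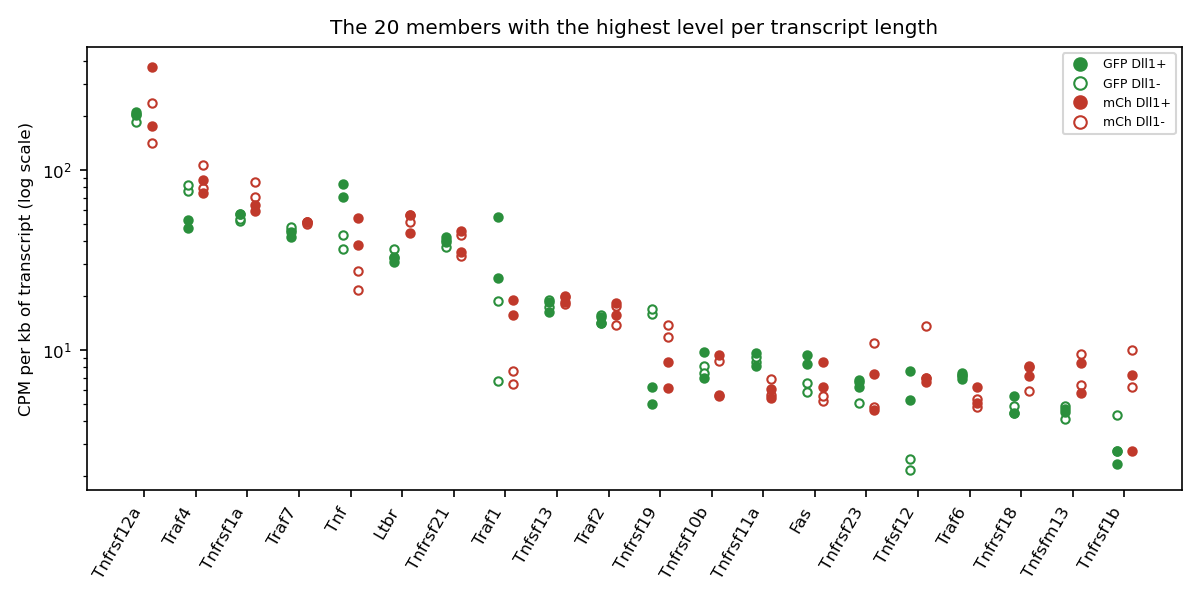
CPM per kb of transcript (log scale) in each of the 8 libraries for the 20 members with the highest mean level, filled for Dll1+ and open for Dll1-, green for PyMT-Dll1GFP and red for PyMT-Dll1mCh. Tnfrsf12a leads with a mean of 215 CPM per kb, and Tnf, Traf1 and Tnfrsf19 show the filled and open points apart within each line.

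Dll1+ cells held more Tnf and Traf1 RNA and less Tnfrsf19 RNA than Dll1- cells of the same mouse, in all 4 mice and in each reporter line. With mouse as a block, 6 of the 42 tested members passed an adjusted p of 0.05 (edgeR, quasi-likelihood test, Benjamini-Hochberg over 18322 genes), or 14.3%, against 14.0% of all tested genes. Of these, 3 were higher (Tnf, Traf1 and Fas, against 6.98% of all genes) and 3 lower (Tnfrsf19, Tnfrsf13c and Tnfrsf1b, against 7.04%). The share of members that differed was thus near the background. The median log2 fold change was -0.08 over the 42 members and -0.00068 over all genes, and 12 members (28.6%) had an unadjusted p under 0.05, as did 32.4% of all genes.

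Among the ligands, Tnf, the inflammatory cytokine that gives the family its name, rose. In the order PyMT-Dll1GFP mouse 1, mouse 2, PyMT-Dll1mCh mouse 1, mouse 2, which is kept below, Tnf stood at 56.4, 66.9, 33.3 and 42.7 CPM in Dll1- and 109.6, 130.0, 59.2 and 84.2 CPM in Dll1+ cells. Within every mouse the Dll1+ library was the higher, while across mice the ranges overlapped, the PyMT-Dll1GFP mice being higher in both fractions. The log2 fold change was 0.93 ± 0.05 (SE, 4 mice, 1.91-fold, adjusted p = 0.00534), with 0.96, 0.96, 0.83 and 0.98 in the single mice. It was 0.96 ± 0.08 in PyMT-Dll1GFP (adjusted p = 0.0035) and 0.90 ± 0.08 in PyMT-Dll1mCh mice (adjusted p = 0.00705). The difference between lines was 0.05, with a 95% confidence interval of -0.21 to 0.31. Across the other settings tried, the 4-mouse value stayed between 0.91 and 0.96 and the adjusted p at or below 0.0389.

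Tnf (chr17:35199381-35202007, minus strand, GRCm38) lies between Ltb and Lta in a stretch of 10.9 kb. Lta, lymphotoxin alpha, stood at 0.171, 0.208, 0.312 and 0.495 CPM in Dll1- and 0.384, 0.403, 0.290 and 0.378 CPM in Dll1+ cells. Its log2 fold change was 0.28 ± 0.37 (adjusted p = 0.627). Ltb, the membrane anchor of the lymphotoxin heterotrimer, stood at 0.239, 0.139, 1.11 and 0.859 CPM against 0.0697, 0.224, 0.580 and 0.468 CPM, a log2 fold change of -0.72 ± 0.38 (adjusted p = 0.238). Both neighbors were thus near 1 CPM or below in all libraries, and neither passed the test. Across the genome, 23 of the 52 members lie in 9 clusters with gaps of at most 100 kb, and the 2 clusters with a member that passed held 1 each (Tnf, and Tnfrsf1b beside the untested Tnfrsf8).

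The other ligands did not pass over the 4 mice. Tnfsf12 (TWEAK, the ligand of Tnfrsf12a) went from 3.07 and 3.54 to 7.50 and 10.96 CPM in PyMT-Dll1GFP mice, and from 10.04 and 19.4 to 9.54 and 9.95 CPM in PyMT-Dll1mCh mice. Its Dll1- levels in the PyMT-Dll1GFP mice were the lowest of the 4 groups, and the other 3 groups lay at similar levels apart from PyMT-Dll1mCh Dll1- mouse 2. The log2 fold change was 1.46 ± 0.26 in PyMT-Dll1GFP (adjusted p = 0.0245) and -0.51 ± 0.24 in PyMT-Dll1mCh mice (adjusted p = 0.206), and the difference of 1.98 ± 0.35 did not pass (adjusted p = 0.113). Tnfsf12 shares its strand and part of its locus with the read-through gene Tnfsfm13, so estimated counts could be split between them. The read-through gene stood at 6.07 to 7.17 CPM in all PyMT-Dll1GFP libraries, with a log2 fold change of 0.03 ± 0.15 in that line (adjusted p = 0.933).

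TRAIL (Tnfsf10) stood at 17.1, 14.6, 8.66 and 9.45 CPM in Dll1- and 17.7, 13.8, 10.6 and 9.91 CPM in Dll1+ cells, a log2 fold change of 0.08 with a 95% interval of -0.15 to 0.31. Eda, the ectodysplasin ligand, was at 2.79 to 4.33 CPM in all libraries (log2 fold change -0.14 ± 0.18). Tnfsf13, the APRIL gene, was at 23.5 to 28.8 CPM, with an interval of -0.17 to 0.12. Of the remaining tested ligands, Tnfsf8, Tnfsf9, Tnfsf13b and Tnfsf18 had log2 fold changes of -0.82, -0.39, -0.82 and 0.50 over the 4 mice, and none passed.

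The 10 members left out of the test were 7 ligands (Cd40lg, Cd70, Fasl, Tnfsf4, Tnfsf11, Tnfsf14 and Tnfsf15) and the receptors Cd27, Tnfrsf8 and Tnfrsf17. In 9 of them no library had more than 22 counts. FasL RNA (Fasl) was at 0 in both PyMT-Dll1GFP Dll1- libraries and at most 0.112 CPM elsewhere, and Cd40lg was at 0 in all 4 PyMT-Dll1GFP libraries. The exception was RANKL (Tnfsf11), with up to 619 counts. It stood at 4.96 and 0.826 CPM in the Dll1- and 1.89 and 0.126 CPM in the Dll1+ libraries of the PyMT-Dll1mCh mice, and at 0 to 0.0697 CPM, below the floor of 3 counts, in PyMT-Dll1GFP mice. With no filter on low counts Tnfsf11 was called lower in Dll1+ cells over the 4 mice.

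**Figure D2:**
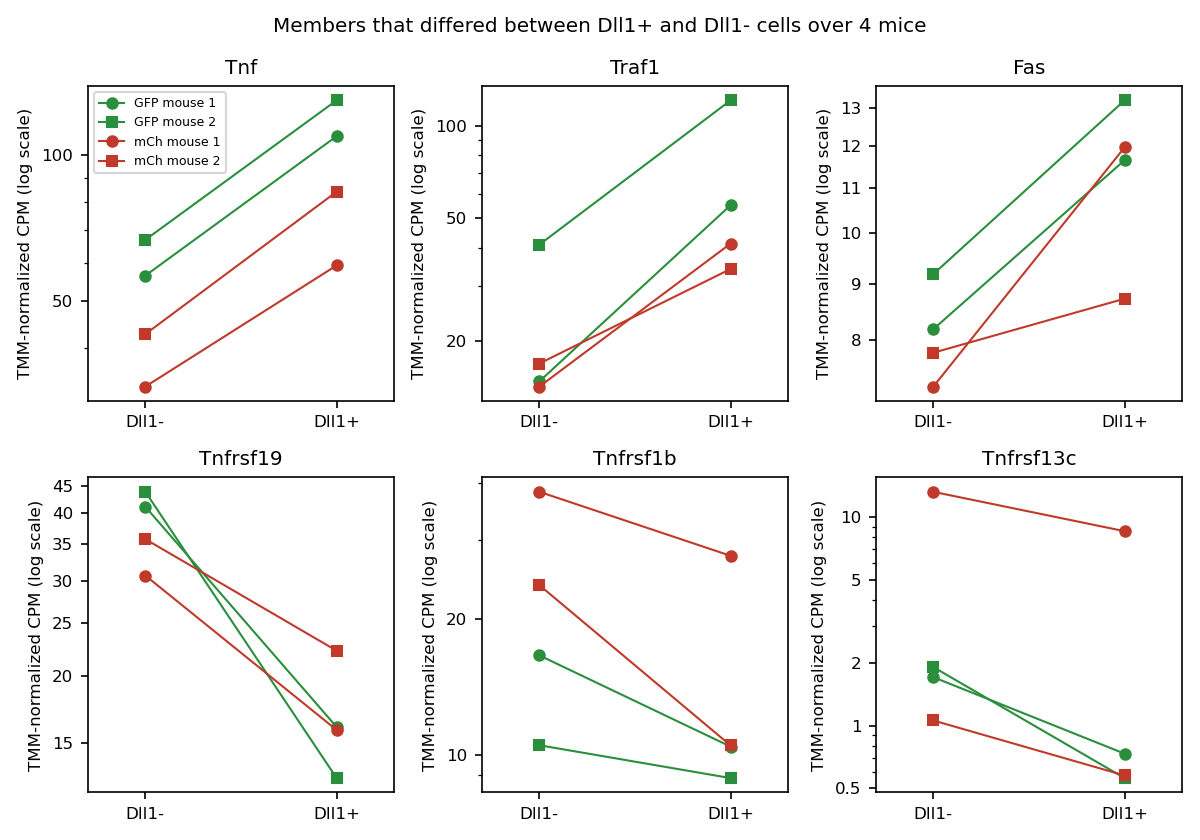
TMM-normalized CPM (log scale) in the Dll1- and Dll1+ library of each mouse, joined by a line, for the 6 members that passed over the 4 mice. Tnf, Traf1 and Fas climb in each of the 4 mice and Tnfrsf19, Tnfrsf1b and Tnfrsf13c decline in each, with PyMT-Dll1mCh mouse 1 far above the rest for Tnfrsf13c.

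Of the 6 death domain receptors, 1 rose. Fas, the FasL receptor and a textbook trigger of apoptosis, stood at 8.19, 9.19, 7.26 and 7.79 CPM in Dll1- and 11.6, 13.2, 11.96 and 8.72 CPM in Dll1+ cells. The fractions overlapped by the Dll1+ library of PyMT-Dll1mCh mouse 2, which showed the smallest of the 4 rises. Over the 4 mice this was a log2 fold change of 0.48 ± 0.12 (1.40-fold, adjusted p = 0.0493). The call was lost with RLE size factors (adjusted p = 0.0509), without the block (0.0824) and without PyMT-Dll1GFP mouse 1 (0.146), PyMT-Dll1GFP mouse 2 (0.131) or PyMT-Dll1mCh mouse 1 (0.196). The effect was 0.52 ± 0.17 in PyMT-Dll1GFP and 0.45 ± 0.17 in PyMT-Dll1mCh mice, and neither passed alone (adjusted p = 0.125 and 0.14).

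TNFR1, the main signaling receptor of TNF, did not pass. Its gene Tnfrsf1a stood at 113, 115, 152 and 184 CPM in Dll1- and 123, 123, 137 and 128 CPM in Dll1+ cells, higher in Dll1+ cells of both PyMT-Dll1GFP mice and lower in those of both PyMT-Dll1mCh mice. Its log2 fold change was -0.11 with a 95% interval of -0.40 to 0.18 over the 4 mice, 0.11 ± 0.11 in PyMT-Dll1GFP and -0.33 ± 0.11 in PyMT-Dll1mCh mice (adjusted p = 0.0909), and the difference of 0.45 ± 0.15 did not pass (adjusted p = 0.289). DR6 (Tnfrsf21) was at 120.1 to 166 CPM, with an interval of -0.05 to 0.20. The mouse TRAIL receptor Tnfrsf10b was at 17.5 to 30.8 CPM, with an interval of -0.19 to 0.32. DR3 (Tnfrsf25) was higher in Dll1+ cells of all 4 mice by 0.13 to 0.80 on the log2 scale, but the 4-mouse value of 0.46 ± 0.19 did not pass (adjusted p = 0.156).

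Edar, the ectodysplasin receptor, fell in PyMT-Dll1GFP mice. It went from 3.79 to 0.767 CPM in mouse 1 and from 0.624 to 0.201 CPM in mouse 2 of that line, and from 2.68 to 2.75 and 0.363 to 0.396 CPM in PyMT-Dll1mCh mice. Each line thus had 1 mouse with a high and 1 with a low level, and the fractions followed the mouse in PyMT-Dll1mCh. Edar had a log2 fold change of -2.04 ± 0.33 in PyMT-Dll1GFP (adjusted p = 0.0179) and 0.06 ± 0.30 in PyMT-Dll1mCh mice, and the difference of -2.10 ± 0.44 had an adjusted p of 0.141. Its other axis members did not pass, as Eda2r (XEDAR) had a log2 fold change of 0.09 ± 0.27.

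Decoy receptors bind ligand without a death signal. Osteoprotegerin (Tnfrsf11b), the secreted trap of RANKL, stood at 7.06, 2.91, 5.06 and 7.10 CPM in Dll1- and 4.36, 1.95, 5.37 and 5.02 CPM in Dll1+ cells (log2 fold change -0.41 ± 0.17, adjusted p = 0.162). The TRAIL decoys Tnfrsf22 and Tnfrsf23 had log2 fold changes of -0.30 ± 0.16 and -0.08 ± 0.18. None of the 3 passed in the 4 mice or in either line.

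Among the other receptors, TROY (Tnfrsf19), an orphan receptor known from epithelial stem cells and the nervous system, showed the clearest fall. It stood at 41.1, 43.8, 30.7 and 35.8 CPM in Dll1- and 16.1, 12.9, 15.9 and 22.3 CPM in Dll1+ cells. The highest Dll1+ library was below the lowest Dll1- library. It had a log2 fold change of -1.18 ± 0.18 (0.441 times, adjusted p = 0.0181), with -1.35, -1.76, -0.95 and -0.69 in the single mice. It was -1.56 ± 0.13 in PyMT-Dll1GFP (adjusted p = 0.00371) and -0.82 ± 0.13 in PyMT-Dll1mCh mice (adjusted p = 0.0175), and the difference of -0.74 ± 0.18 did not pass (adjusted p = 0.191). Without PyMT-Dll1GFP mouse 1 or PyMT-Dll1mCh mouse 1 the 4-mouse adjusted p was 0.0814 or 0.0701, and without the latter the adjusted p in PyMT-Dll1mCh mice was 0.084. The gene lies at chr14:60963875-61046490 and overlaps the lincRNA Gm41168 on the opposite strand. The library kit kept strand, but whether the counting used it is not given in the sources used here, so reads of overlapping genes may not be separated.

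TNFR2 (Tnfrsf1b), the TNF receptor best known from leukocytes, stood at 16.6, 10.5, 38.3 and 23.8 CPM in Dll1- and 10.4, 8.88, 27.6 and 10.5 CPM in Dll1+ cells. It was lower in Dll1+ cells of each mouse, and the PyMT-Dll1mCh mice spread more widely than the others. Its log2 fold change was -0.64 ± 0.16 (0.640 times, adjusted p = 0.0495). The call was lost with RLE size factors (adjusted p = 0.054), without the block (0.305) and without PyMT-Dll1GFP mouse 1 (0.151), PyMT-Dll1GFP mouse 2 (0.063) or PyMT-Dll1mCh mouse 1 (0.148).

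The BAFF receptor gene Tnfrsf13c, known from B cells, also fell, on values that 1 mouse set apart. It stood at 1.71, 1.91, 13.2 and 1.06 CPM in Dll1- and 0.732, 0.559, 8.56 and 0.576 CPM in Dll1+ cells. PyMT-Dll1mCh mouse 1 was over the other mice in both fractions, and the log2 differences within mice were -1.18, -1.70, -0.63 and -0.83. Over the 4 mice it had a log2 fold change of -1.08 ± 0.23 (0.473 times, adjusted p = 0.0335), and -1.50 ± 0.26 in PyMT-Dll1GFP mice (adjusted p = 0.0214). The call was lost without the block (adjusted p = 0.525) and without PyMT-Dll1GFP mouse 1 (0.114), PyMT-Dll1GFP mouse 2 (0.0782) or PyMT-Dll1mCh mouse 1 (0.104, and 0.0619 in PyMT-Dll1GFP mice). The 8 B cell markers summed to 14.1 CPM in Dll1- and 5.77 CPM in Dll1+ cells of PyMT-Dll1mCh mouse 1. They summed to 14.5 and 5.09 CPM in mouse 2 of that line, whose Tnfrsf13c was low. In PyMT-Dll1GFP mice the sums were 3.17 and 1.56 CPM in Dll1- and 1.39 and 1.34 CPM in Dll1+ cells. Blk was at 0 in all 4 libraries of that line. The part of B cells in the levels of Tnfrsf13c was not tested.

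Receptors that passed in PyMT-Dll1mCh but not in PyMT-Dll1GFP mice were Tnfrsf12a, Cd40 and Tnfrsf26, and for none of them did the difference between lines pass (adjusted p = 0.366, 0.369 and 0.227). The TWEAK receptor Tnfrsf12a stood at 133, 145, 102 and 169 CPM in Dll1- and 151, 148, 126 and 268 CPM in Dll1+ cells, and its rise in PyMT-Dll1mCh mice was 0.49 ± 0.11 (adjusted p = 0.0398). Without PyMT-Dll1mCh mouse 2, the mouse with the larger rise, the value was 0.28 (adjusted p = 0.244). Over the 4 mice its value of 0.30 ± 0.11 did not pass (adjusted p = 0.126). Cd40, a co-stimulatory receptor of antigen-presenting cells, fell from 2.55 and 3.57 to 1.36 and 1.24 CPM in PyMT-Dll1mCh mice (-1.21 ± 0.27, adjusted p = 0.039), while in PyMT-Dll1GFP mice it was 1.297 to 1.706 CPM in both fractions. Tnfrsf26 fell from 1.53 and 2.87 to 0.565 and 0.630 CPM in PyMT-Dll1mCh mice (-1.80 ± 0.33, adjusted p = 0.0251) and was 0.381 to 0.488 CPM in PyMT-Dll1GFP mice. Without PyMT-Dll1mCh mouse 1 or mouse 2 the adjusted p was 0.079 or 0.204 for Cd40 and 0.0736 or 0.175 for Tnfrsf26, and without PyMT-Dll1GFP mouse 1 or mouse 2 it was 0.0679 or 0.0703 for Cd40 and, without mouse 2, 0.0501 for Tnfrsf26.

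In the same PyMT-Dll1mCh comparison, markers of other cell types were lower in Dll1+ cells too. Among 12 macrophage and monocyte markers, 11 were lower and 1, Cd14, was higher, and 5 of 10 fibroblast, 4 of 10 endothelial, 5 of 6 pericyte and 4 of 5 pan-leukocyte markers were lower. Of all genes tested, 6.25% were called lower and 5.51% higher in that comparison. The sum of all 12 macrophage and monocyte markers was 762 and 919 CPM in Dll1- and 508 and 707 CPM in Dll1+ cells of PyMT-Dll1mCh mice. In PyMT-Dll1GFP mice it was higher in Dll1+ cells, at 404 to 466 CPM against 276 to 320 CPM in Dll1- cells. Leaving out Cd14, chosen after its value was seen, the macrophage sum was 615 and 640.3 CPM in Dll1- and 272 and 285 CPM in Dll1+ cells of PyMT-Dll1mCh mice, and 100.2 to 128 CPM in PyMT-Dll1GFP libraries. None of the fibroblast, pericyte, endothelial and pan-leukocyte markers passed in PyMT-Dll1GFP mice. Of the macrophage markers, 1 was called higher in Dll1+ cells of that line, and none was at 0 in a group. The part of these cells in the levels of Cd40, Tnfrsf26, Tnfrsf1b and Tnfsf13b was not tested.

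**Figure D3:**
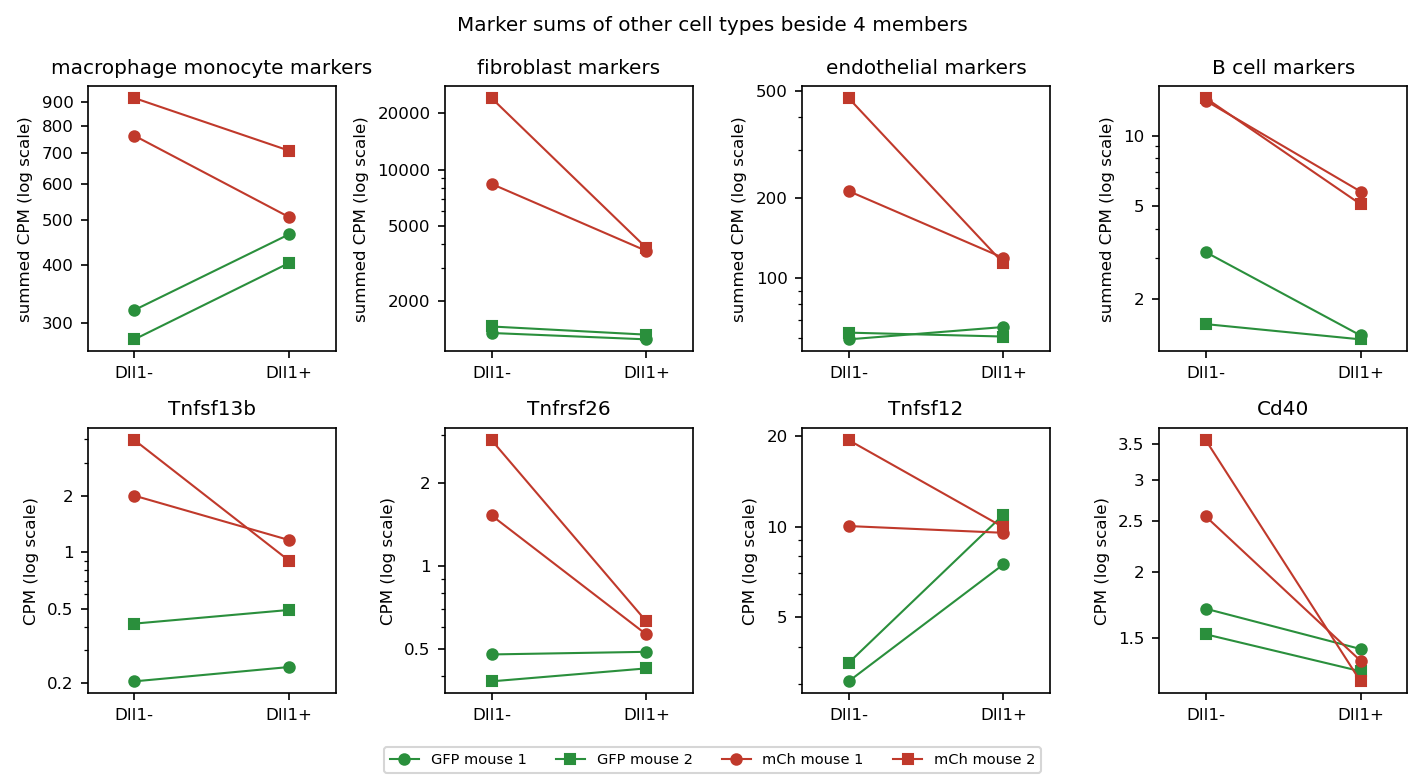
Summed CPM (log scale) of macrophage, fibroblast, endothelial and B cell markers (top) and CPM of Tnfsf13b, Tnfrsf26, Tnfsf12 and Cd40 (bottom), with the Dll1- and Dll1+ library of each mouse joined. In PyMT-Dll1mCh mice (red) the marker sums and the 4 members decline from Dll1- to Dll1+. In PyMT-Dll1GFP mice (green) Tnfsf12 and the macrophage sum, here with Cd14, climb, while the fibroblast sum stays between 1248 and 1461 CPM.

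The RANK receptor Tnfrsf11a, the lymphotoxin receptor Ltbr and GITR (Tnfrsf18) did not pass in the 4 mice or in either line. Tnfrsf11a was 43.1, 46.0, 34.4 and 28.1 CPM in Dll1- and 41.0, 48.2, 30.6 and 27.0 CPM in Dll1+ cells, with a 95% interval of the log2 fold change of -0.21 to 0.09. Ltbr was 65.1 to 76.4 CPM in PyMT-Dll1GFP and 94.2 to 118 CPM in PyMT-Dll1mCh libraries, with an interval of -0.26 to 0.04. Tnfrsf18 had an interval of -0.17 to 0.40.

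Of the 7 TRAFs, 1 rose over the 4 mice. Traf1, an adaptor that is itself an NF-κB target and binds TNFR2, stood at 14.7, 41.0, 14.2 and 16.8 CPM in Dll1- and 55.1, 121, 41.3 and 34.2 CPM in Dll1+ cells. It was higher in Dll1+ cells of every mouse, and the fractions overlapped, as the Dll1- library of PyMT-Dll1GFP mouse 2 was above the lowest Dll1+ library. The log2 fold change was 1.51 ± 0.14 (2.84-fold, adjusted p = 0.00645), the largest among the 42 members, with 1.90, 1.56, 1.54 and 1.02 in the single mice. It was 1.72 ± 0.16 in PyMT-Dll1GFP (adjusted p = 0.00494) and 1.29 ± 0.15 in PyMT-Dll1mCh mice (adjusted p = 0.012), a difference of 0.43 ± 0.22 (adjusted p = 0.479). Without the mouse block the adjusted p was 0.0635, and without any 1 mouse the 4-mouse call held.

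Traf4 fell in PyMT-Dll1GFP mice. It stood at 158, 171, 221 and 164 CPM in Dll1- and 98.8, 109, 181 and 154 CPM in Dll1+ cells, lower in all 4 mice. The log2 fold change was -0.67 ± 0.09 in PyMT-Dll1GFP (adjusted p = 0.00902), -0.19 ± 0.08 in PyMT-Dll1mCh (adjusted p = 0.192) and -0.43 ± 0.11 over the 4 mice (adjusted p = 0.0602), and the difference of -0.48 ± 0.12 did not pass (adjusted p = 0.191). The 4-mouse value passed under 4 of 9 alternatives, namely DESeq2 (adjusted p = 0.0032), no filter (0.0336), a minimum of 10 counts (0.05 after rounding, under the threshold) and without PyMT-Dll1mCh mouse 2 (0.0224), with 0.178 as the highest of the 9. The other 5 did not pass in the 4 mice or in either line. Traf2, which recruits the ubiquitin ligases cIAP1 and cIAP2, had a log2 fold change of 0.05 with an interval of -0.12 to 0.23, and Traf6, the adaptor of RANK and CD40, 0.07 with an interval of -0.09 to 0.23. Traf3, the brake on the NF-κB-inducing kinase NIK, was lower in all 4 mice (-0.17 ± 0.06, adjusted p = 0.118), and Traf5 and Traf7 had values of -0.05 ± 0.16 and -0.05 ± 0.05.

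By line, 7 of the 42 members passed in PyMT-Dll1GFP mice (16.7%, against 9.13% of all genes), 3 higher (Tnf, Traf1 and Tnfsf12, against 4.29%) and 4 lower (Tnfrsf19, Tnfrsf13c, Edar and Traf4, against 4.84%). In PyMT-Dll1mCh mice 6 passed (14.3%, against 11.8%), 3 higher (Tnf, Traf1 and Tnfrsf12a, against 5.51%) and 3 lower (Tnfrsf19, Cd40 and Tnfrsf26, against 6.25%). Tnf, Traf1 and Tnfrsf19 were in both lists. The median log2 fold change of the members was -0.01 in PyMT-Dll1GFP (all genes -0.00932) and -0.19 in PyMT-Dll1mCh mice (all genes 0.02). Without PyMT-Dll1GFP mouse 1 or mouse 2, whose effect then rests on 1 mouse, none of the 7 passed in that line, where 20 and 2 of all genes then passed. Fitting the PyMT-Dll1mCh libraries alone called 0 of all 19945 genes tested, members included, and leaving out PyMT-Dll1GFP mouse 2 or PyMT-Dll1mCh mouse 2 left 3 (Tnf, Traf1 and Tnfrsf19).

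No member passed the test of the difference between the lines (0 of 42, against 0.0710% of all genes, edgeR), with 11 (26.2%) at an unadjusted p under 0.05, as were 13.2% of all genes. DESeq2 called 1 member, Tnfsf12, among 540 genes. Each of 7 members was higher in Dll1+ cells of both PyMT-Dll1GFP mice and lower in those of both PyMT-Dll1mCh mice (Eda2r, Lta, Tnfrsf13b, Tnfrsf1a, Tnfrsf26, Tnfsf12 and Tnfsf13b), and Edar showed the reverse. Those counts describe signs alone, and some of the single-mouse values were as small as -0.02 (Eda2r, PyMT-Dll1mCh mouse 1).

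**Figure D4:**
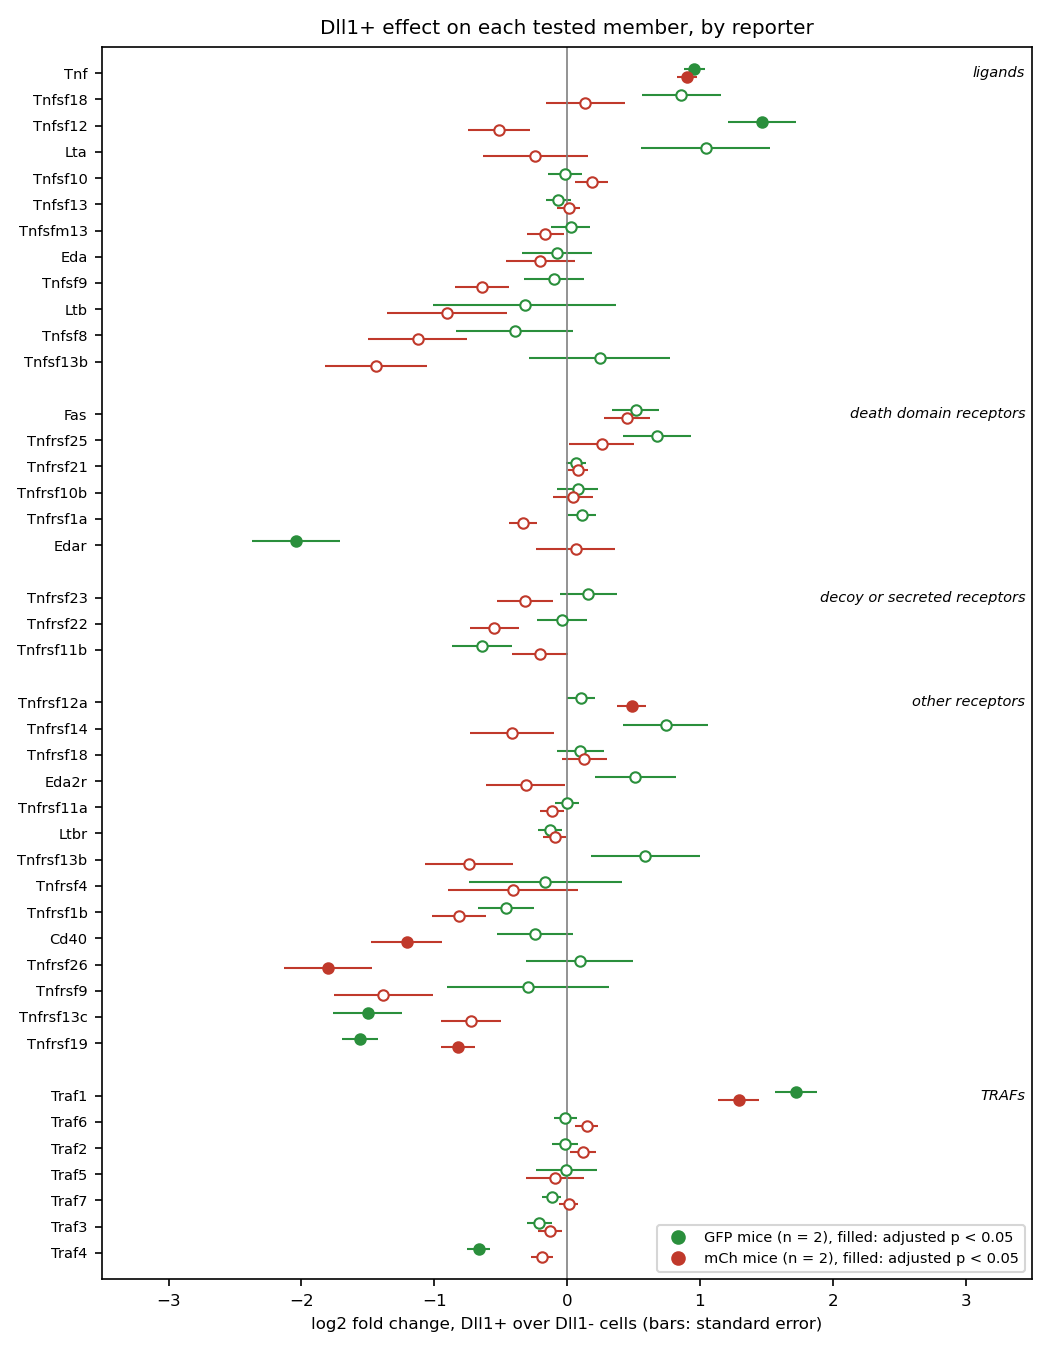
Log2 fold change of Dll1+ over Dll1- cells with its standard error for the 42 tested members, grouped by role, in PyMT-Dll1GFP (green, n = 2 mice) and PyMT-Dll1mCh mice (red, n = 2), filled where the adjusted p was under 0.05. Tnf, Traf1 and Tnfrsf19 are filled in both lines, and Edar, Tnfsf12 and Tnfrsf26 show the widest separation between lines.

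The levels of many members differed between the reporter lines. In Dll1- cells, 14 of 42 members passed (33.3%, against 36.6% of all genes), 10 higher in PyMT-Dll1mCh mice (against 18.7%) and 4 lower (against 17.9%). In Dll1+ cells 9 passed (21.4%, against 30.6%), 5 higher (against 15.2%) and 4 lower (against 15.4%). The share higher in Dll1- cells was 23.8%, above that of all genes, and the other 3 directional shares, 9.52% lower in Dll1- and 11.9% higher and 9.52% lower in Dll1+ cells, were below it. With RLE size factors the split in Dll1+ cells was 3 higher and 5 lower. Without PyMT-Dll1GFP mouse 1 or mouse 2, neither fraction had a member past the threshold (0 of all genes tested).

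BAFF (Tnfsf13b), a survival factor for B cells made by myeloid and stromal cells, differed most in Dll1- cells. It was 0.205 and 0.416 CPM in PyMT-Dll1GFP and 2.00 and 3.96 CPM in PyMT-Dll1mCh Dll1- cells (log2 difference 3.24 ± 0.57, adjusted p = 0.00627). In Dll1+ cells it was 0.244 and 0.492 against 1.16 and 0.899 CPM (1.44 ± 0.54, adjusted p = 0.0805). The T cell co-stimulatory receptor 4-1BB (Tnfrsf9) was at 0.0895 to 0.139 CPM in PyMT-Dll1GFP libraries, and at 0.713 and 1.32 CPM in Dll1- and 0.305 and 0.450 CPM in Dll1+ cells of PyMT-Dll1mCh mice. Its log2 differences were 2.83 ± 0.53 (adjusted p = 0.0076) and 1.74 ± 0.54 (adjusted p = 0.0493). Tnfrsf9 overlaps Camta1 on the opposite strand.

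Ltb was higher in PyMT-Dll1mCh mice by 2.38 ± 0.54 in Dll1- (adjusted p = 0.0148) and 1.73 ± 0.54 in Dll1+ cells (adjusted p = 0.0496), with its values given above. In Dll1+ cells the Tnfrsf9 call was lost under all 7 alternatives and the Ltb call under 6 of 7. The adjusted p was 0.0512 for both with RLE size factors, and 0.0952 (Ltb) and 0.13 (Tnfrsf9) with DESeq2. Tnfrsf26 and Tnfsf12 were higher in Dll1- cells by 2.33 ± 0.41 (adjusted p = 0.00663) and 2.15 ± 0.35 (adjusted p = 0.00511), and by 0.39 ± 0.41 and 0.08 ± 0.33 in Dll1+ cells, where neither passed. The 4-1BB ligand Tnfsf9 was 2.01 to 2.32 CPM in PyMT-Dll1GFP and 3.26 to 5.99 CPM in PyMT-Dll1mCh libraries, without overlap (1.43 ± 0.24, adjusted p = 0.00521 in Dll1- cells, and 0.90 ± 0.23, adjusted p = 0.0289 in Dll1+ cells). The herpesvirus entry mediator Tnfrsf14 was lower in PyMT-Dll1mCh Dll1+ cells, at 1.34 and 0.863 against 2.23 and 3.18 CPM (-1.29 ± 0.33, adjusted p = 0.0282). In Dll1+ cells the call of Tnfsf9 was lost under 5 of 10 alternatives and that of Tnfrsf14 under 4 of 10. Among these was the fit of the 4 Dll1+ libraries alone (adjusted p = 0.0751 and 0.0538). Without PyMT-Dll1mCh mouse 1 the difference of Tnfsf9 was 0.64, and without PyMT-Dll1mCh mouse 2 that of Tnfrsf14 was -1.01.

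Tnf itself was lower in PyMT-Dll1mCh mice in both fractions, with log2 differences of -0.70 ± 0.21 in Dll1- (adjusted p = 0.039) and -0.74 ± 0.21 in Dll1+ cells (adjusted p = 0.0375). The same direction held for Tnfrsf11a and Tnfsf10 in both fractions, while Ltbr was higher by 0.63 ± 0.13 and 0.68 ± 0.13 (adjusted p = 0.0109 and 0.0118). The members called higher in Dll1- cells stood in libraries with the higher fibroblast and pan-leukocyte sums given above, and the part of those cells in the differences was not tested.

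**Figure D5:**
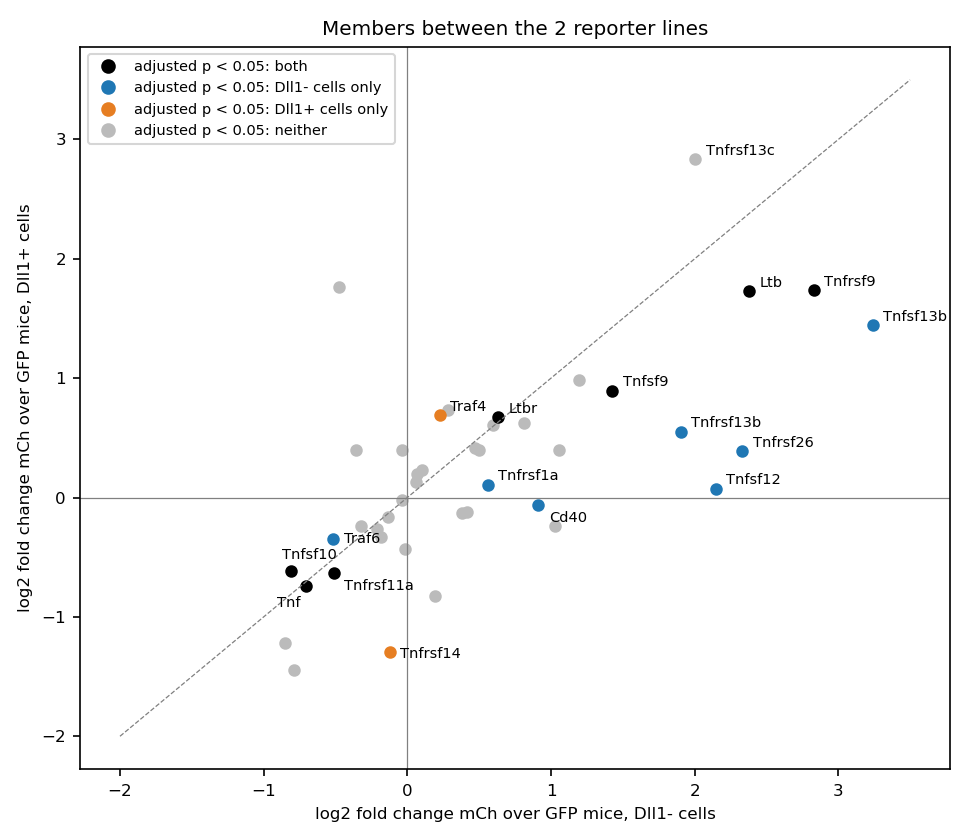
Log2 fold change of PyMT-Dll1mCh over PyMT-Dll1GFP mice for each tested member in Dll1- (horizontal) and Dll1+ cells (vertical), colored by where the adjusted p was under 0.05, with the line of equality dashed. Tnfsf13b, Tnfrsf26 and Tnfsf12 lie far to the right at 3.24, 2.33 and 2.15, and Tnf lies near equality at -0.70 and -0.74.

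Genes that act downstream of these receptors were read from 4 lists. Among 15 NF-κB subunits and regulators, 6 were higher and 1 lower in Dll1+ cells over the 4 mice, with a median log2 fold change of 0.26. The 7 calls became 1 without the mouse block, 0 without PyMT-Dll1GFP mouse 1 or PyMT-Dll1mCh mouse 1, and 3 without PyMT-Dll1GFP mouse 2. Nfkbia and Nfkbiz rose by 0.71 ± 0.09 (adjusted p = 0.0105) and 0.69 ± 0.09 (adjusted p = 0.0113), and Bcl3 fell by 0.40 (SE 0.07, adjusted p = 0.0227). Nfkbia stood at 462, 603, 367 and 566 CPM in Dll1- and 879, 1033, 551 and 820.5 CPM in Dll1+ cells.

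Among 33 tested genes known to be induced by TNF, 5 were higher and 3 lower, with a median of 0.13. DESeq2 called 16 (13 higher), and the count was 1, 2 and 3 without PyMT-Dll1GFP mouse 1, PyMT-Dll1GFP mouse 2 and PyMT-Dll1mCh mouse 1. Ier3, an early survival gene, rose by 0.77 ± 0.08 (adjusted p = 0.00645), the cytokine gene Lif by 1.08 ± 0.12 (adjusted p = 0.00798) and Gadd45b by 0.69 ± 0.11 (adjusted p = 0.015). By line, 9 of the 33 were higher in PyMT-Dll1GFP mice (against 4.29% of all genes), with a median of 0.34. In PyMT-Dll1mCh mice 4 were higher (against 5.51%) and 8 lower (against 6.25%), with a median of -0.29. The medians of the lines thus had opposite signs. No gene of the list passed the test of the difference between lines (0 of 33, against 0.0710% of all genes), and the counts and medians themselves were not compared. The 8 that were lower in PyMT-Dll1mCh mice were Ccl2, Ccl7, Cxcl10, Il1b, Sele, Bcl2a1b, Plau and Tnfaip6. They are known from myeloid, endothelial and stromal cells as well, and the part of those cells in their levels was not tested.

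The 35 signal adaptors and regulators had 3 higher and 2 lower, with a median of 0.04. DESeq2 called 11, the model without the mouse block 1, and none passed without PyMT-Dll1GFP mouse 1, PyMT-Dll1GFP mouse 2 or PyMT-Dll1mCh mouse 1. The deubiquitinase gene Usp2 rose by 0.39 ± 0.07 (adjusted p = 0.0208) and Map3k14, which encodes NIK, by 0.41 ± 0.08 (adjusted p = 0.023), and Bid, the link from caspase-8 to mitochondria, fell by 0.69 (SE 0.14, adjusted p = 0.036). Of 8 genes that release or process TNF at the membrane, or control this step, 4 were higher, with a median of 0.22 over the 8. They were the intramembrane protease Sppl2a (0.36 ± 0.05, adjusted p = 0.0134), the iRhom genes Rhbdf2 (0.37 ± 0.06, adjusted p = 0.0178) and Rhbdf1 (0.32 ± 0.06, adjusted p = 0.0218), which guide the TNF-shedding enzyme ADAM17, and its inhibitor Timp3. The other 4 did not pass, Adam17 itself among them. Adam17 stood at 93.4, 84.0, 84.6 and 81.3 CPM in Dll1- and 81.1, 84.0, 74.8 and 80.1 CPM in Dll1+ cells. The 4 calls became 0 without the mouse block and without PyMT-Dll1GFP mouse 1 or PyMT-Dll1mCh mouse 1, and 1 without PyMT-Dll1GFP mouse 2. Adam10, which sheds several ligands of the family, was lower in PyMT-Dll1GFP mice (-0.44, adjusted p = 0.0187) and did not pass over the 4 mice. The 4-mouse counts of the lists stand beside the 14.0% of all genes called in the same comparison, and the lists were not tested as sets.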

How the data were processed

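RNA-seq libraries of sorted Dll1+ and Dll1- tumor cells (8 libraries, 4 mice) were used. The authors quantified reads with salmon against GENCODE M20 mouse transcripts (GRCm38.p6), summarized transcripts per gene with tximport, and the deposited estimated counts are whole numbers without normalization. Libraries were grouped by the reporter, Dll1 status and mouse given in the labels, and 2 libraries of the same mouse formed a pair. As a check of the pairing, deviations of same-mouse libraries correlated at r = -0.05 in PyMT-Dll1GFP and 0.55 in PyMT-Dll1mCh mice.

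Counts were tested with edgeR 4.0.16 (R 4.3.3, TMM, filterByExpr on Dll1 status, robust quasi-likelihood F test), with a threshold of 0.05 after Benjamini-Hochberg adjustment over the 18322 genes tested. The 4-mouse model held mouse and Dll1 status, following the study's own model. Another model held a separate Dll1 effect per reporter, and a model of the 4 groups, without a mouse term, gave levels between lines. A prior count of 2 entered the log2 values of single libraries. Gene coordinates and transcript lengths (median of basic protein-coding transcripts) came from GENCODE M21 (GRCm38), and promoters from RefSeq. Alternatives were RLE size factors, DESeq2 1.42.0, no filter, a minimum of 10 counts in all libraries, a model lacking the mouse, limma 3.58.1 (voom, mouse as a random effect) for levels, fewer libraries, and each mouse left out. Scripts were tested on simulated counts.

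The members, lists and named genes were chosen with earlier results of these data known. Named were every member past the threshold in the 4-mouse fit or a reporter's effect, the ligand-receptor axes and TRAFs whatever their result, the 5 members highest per transcript length, the 5 called members with the largest difference between lines in each fraction, and up to 3 called genes with the lowest p of each pathway list. Nothing says that a library is more than 1 tumor sample. The p-values of Dll1+ against Dll1- cells thus measure how differences within a mouse vary between these mice. Those between lines come from the model of the 4 groups and rest on the spread between the 2 mice of each group. That model took the 2 libraries of a mouse as independent, so these p-values can overstate the certainty.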

Additional observations from a re-analysis of the deposited data

Results flagged for a closer look

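In each Dll1 fraction, the 4 libraries of 35 of the 42 tested members were searched for 1 library far from the other 3 (gap over range above Dixon's 95% critical value). The 35 were those called in any comparison or on a named ligand-receptor axis or TRAF. Of 70 groups, over 35 members, 4 were marked, where chance marks about 1 in 20 if the 4 libraries come from 1 population. Each group mixed both reporter lines.

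Traf1 stood at 41.0 CPM in the Dll1- library of PyMT-Dll1GFP mouse 2, against 14.2 to 16.8 CPM in the other 3 Dll1- libraries. Its Dll1+ library of the same mouse was also the highest, at 121 CPM. Tnfrsf13c, the BAFF receptor gene, stood at 8.56 CPM in the Dll1+ library of PyMT-Dll1mCh mouse 1, against 0.559 to 0.732 CPM in the others. Tnfrsf1b (TNFR2) stood at 27.6 CPM in that same library, against 8.88 to 10.5 CPM. Eda, the ectodysplasin ligand, stood at 3.05 CPM in the Dll1- library of PyMT-Dll1mCh mouse 1, below the 4.09 to 4.33 CPM of the others.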

How the results depend on the processing

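Tnf stayed past the threshold over the 4 mice under all 9 alternatives, Traf1 under 8, Tnfrsf19 under 7, Tnfrsf13c under 5 and Fas and Tnfrsf1b under 4 each, with the same direction throughout. Of the members called over the 4 mice (6), the analysis without the mouse block, that is without the pairing, kept 2 (Tnf and Tnfrsf19), and it kept 1 of 7 in PyMT-Dll1GFP and 0 of 6 in PyMT-Dll1mCh mice. With the mouse as a random effect, 13 members were called between lines in Dll1- and 8 in Dll1+ cells, against 14 and 9. In PyMT-Dll1mCh mice, no filter gave 11 members (3637 of 34834 genes) and a fit of that line alone 0 (0 of 19945 genes). In the difference between lines, DESeq2 called 1 member (540 genes) and no filter 3 (1143 genes). The 4 Dll1+ libraries alone gave 5 members between lines. The cause of these changes was not tested.

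Leaving out 1 mouse at a time gave 2 to 7 members over the 4 mice (2 without PyMT-Dll1GFP mouse 1 or PyMT-Dll1mCh mouse 1), 0 to 7 in PyMT-Dll1GFP, 3 to 6 in PyMT-Dll1mCh, 0 to 1 in the difference, 0 to 15 between lines in Dll1- and 0 to 10 in Dll1+ cells. The lone mouse of a line was then assumed to vary like the others. In the same leave-outs, log2 fold changes that crossed 0 ran from -0.199 to 0.323 for Eda2r, -0.0381 to 0.159 for Tnfrsf10b, -0.261 to 0.0182 for Eda, -0.189 to 0.0214 for Tnfrsf1a, -0.238 to 0.0827 for Tnfrsf23 and -0.143 to 0.0665 for Traf5, none of them called. Of the 10 untested members, 9 had at most 22 counts in a library, and 2 mice a line limit every statement by line.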
